A study of Mus musculus with 40 samples.

Results

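The genes described here encode enzymes of glycolysis and of the pentose phosphate pathway in 5 cecal bacteria: F. rodentium, D. muris, Acetatifactor, L.bacterium335 and X. muris, named as in the deposited tables. They were chosen by gene symbol, with any trailing copy number removed: pgi, pfkA, pfp, fba, fbaA, tpiA, gap, gapA, pgk, gpmA, gpmI, eno, pyk, pykF, rpiA, rpiB, rpe, tkt, tktA, tal, zwf or gnd. This gave 67 features of the 16742 in the 5 tables and of 18455 in all 6 tables of the series. F. rodentium held 18 of them, L.bacterium335 15, Acetatifactor 14, D. muris 13 and X. muris 7.

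Bacterial RNA was sequenced from the cecal contents of 40 C57BL/6 mice, 10 per diet, to ask how the gut bacteria differ with broccoli in a Western-type diet. All mice were 3 weeks old when they started on the Total Western Diet, a rodent diet built on Western nutrient intakes, and they ate it for 6 weeks. The same diet then carried broccoli powder for 3 further weeks, at 0% in one group and at 0.5%, at 1% and at 2.5% in the others. The libraries thus form 4 groups of 10, all on the Western diet, and the 0% group is the control. The labels do not say which mice shared a cage.

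Glycolysis splits glucose into pyruvate and yields ATP, and most fermenting gut bacteria draw their energy from it. In its upper part a sugar phosphate is isomerised (pgi), phosphorylated (pfkA, or the pyrophosphate-dependent pfp) and split (fba, tpiA). In its lower part triose phosphates are oxidised and rearranged to pyruvate (gap or gapA, pgk, gpmA or gpmI, eno, pyk), while the pentose phosphate pathway interconverts sugar phosphates (rpe, rpiA, rpiB, tkt, tal) and supplies ribose for nucleotides. No feature carried the symbol zwf or gnd, which belong to the oxidative branch, nor fbaA, tktA or pykF. Only D. muris had tkt and rpiB, only F. rodentium had rpiA and only Acetatifactor had tal, going by symbol. Copies with a numeric suffix, such as gpmA_1 to gpmA_5 or pfp_1 to pfp_3, belong to one family, and their separate counts are uncertain. Gene lengths were not used here, so levels are compared between diets for a gene and not between genes.

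Levels are given as CPM, counts per 1000000 counts on the same genome, after TMM scaling, so a gene is measured relative to the rest of its own bacterium. Fewer cells of a bacterium and less RNA per cell cannot be told apart in these data. Changes are log2 fold changes ± SE, called at an adjusted p under 0.05 in the quasi-likelihood test of edgeR. P-values were adjusted by the Benjamini-Hochberg method over all tested features of the genome. The comparisons with 0% share the same control libraries. At 2.5% the median counts per library were 121705 on F. rodentium, 525404 on L.bacterium335, 129471 on Acetatifactor, 93134 on D. muris and 137432 on X. muris. At 0% they were 511338 on F. rodentium, 83651 on L.bacterium335, 35241 on Acetatifactor, 28584 on D. muris and 19234 on X. muris. Depth on a genome and broccoli dose thus moved together, and their parts in the results cannot be fully told apart. Of the 67 members, 49 passed the low-count filter and were tested.

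F. rodentium was the bacterium with the largest part of its RNA on these genes. The 18 members took 11.1% ± 0.87 of its counts at 0% (SD, n = 10), 11.96% ± 1.20 at 0.5% (n = 10), 11.4% ± 1.93 at 1% (n = 10) and 10.99% ± 0.93 at 2.5% (n = 8). The 4 group means lay within about 1 percentage point of each other, and the highest and lowest libraries overlapped between all diets. The 2.5% replicates 6 and 9 held 161 and 352 counts on this genome and were left out. Of all member counts on F. rodentium, 53.4% lay on gap, the glyceraldehyde 3-phosphate dehydrogenase gene, and 13.6% on eno, the enolase gene.

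**Figure D1:**
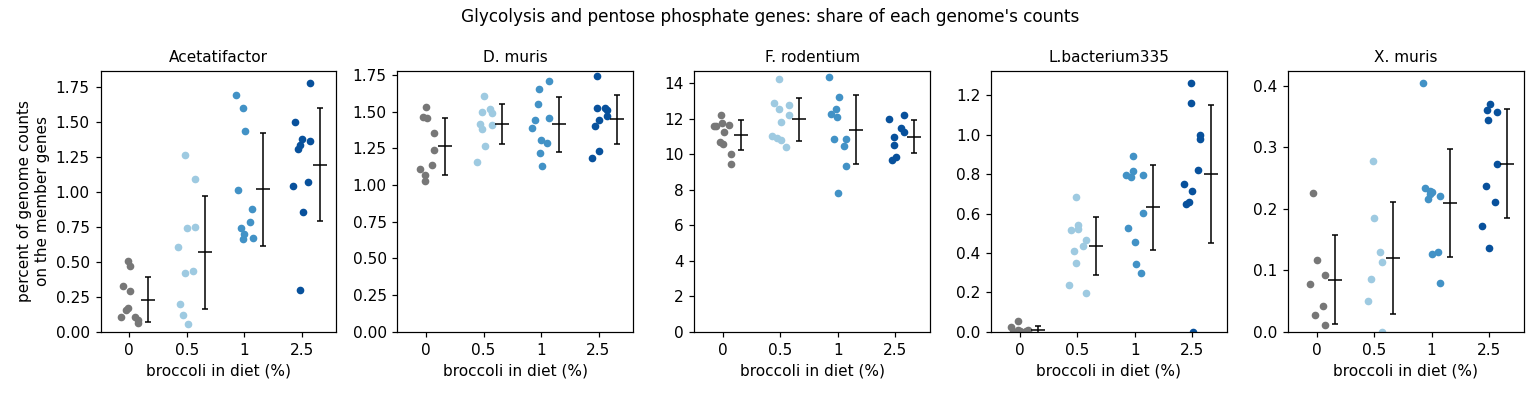
Percent of each genome's counts that lay on its glycolysis and pentose phosphate genes, 1 point per library, by percent of broccoli in the diet; bars are mean ± SD. F. rodentium and D. muris hold nearly level (10.99% and 1.45% at 2.5%, against 11.1% and 1.26% at 0%), while the other 3 genomes lie higher at 2.5% than at 0% on average.

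At 2.5% broccoli 4 of the 17 tested F. rodentium members were lower than at 0% and 0 were higher: gpmA_4, rpiA, pfkA and gpmI. Over all 1689 tested features of this genome, 9.41% were called at this dose, 4.03% lower. The median log2 change was -0.21 over the tested members and 0.01 over all tested features. A total of 15 of the 17 estimates were negative. The one copy not tested, gpmA_3, had 0 counts in every library.

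The first of these, gpmA_4, is a symbol for phosphoglycerate mutase, which moves the phosphate of 3-phosphoglycerate. Its lowest, median and highest CPM were 547, 661 and 1106 at 0%, 290.2, 488 and 684 at 0.5%, 243, 447 and 626 at 1%, and 157, 320.4 and 489 at 2.5%. No 2.5% library reached the lowest of the 10 at 0%, and the intermediate doses overlapped both. Its log2 change at 2.5% was -1.05 ± 0.21 (edgeR, adjusted p = 0.00078). At 0.5% it was -0.50 ± 0.18 (adjusted p = 0.0738), and at 1% it was -0.66 ± 0.19 (adjusted p = 0.148), neither passing the test. This copy held 0.45% of the member counts, and the copies did not move together. At 2.5% gpmA_2 changed by 0.02 ± 0.32 and gpmA_5 by -0.18 ± 0.31 (edgeR, adjusted p = 0.989 and 0.779). At 0.5% gpmA_5 changed by 0.60 ± 0.26 (edgeR, adjusted p = 0.156). The cofactor-independent phosphoglycerate mutase gene gpmI, which encodes an unrelated enzyme for the same step, had 3316, 3872 and 4768 CPM at 0%, 2775, 3762 and 4878 at 0.5%, 2457, 3598 and 4198 at 1%, and 2160.0, 2972 and 3536 at 2.5%. Each of the 8 libraries at 2.5% was under the 0% mean, although the ranges overlapped. The change of gpmI was -0.51 ± 0.14 (edgeR, adjusted p = 0.0196), and without the 6 libraries numbered 76 to 81 in the labels it missed the threshold (-0.46, adjusted p = 0.0521), as it did with the genome total as a covariate (-0.44, adjusted p = 0.0800).

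The gene rpiA encodes ribose 5-phosphate isomerase, which links ribulose 5-phosphate to ribose 5-phosphate. It had 274, 427 and 598 CPM (lowest, median and highest) at 0%, 182, 271 and 424 at 0.5%, 98.8, 304 and 542 at 1%, and 70.4, 139 and 388 at 2.5%. Each of the 8 libraries at 2.5% was under the 0% mean, 2 of them within the 0% range. Its change at 2.5% was -1.13 ± 0.26 (edgeR, adjusted p = 0.0036). These 8 libraries held 3 to 189 counts each on rpiA and 7 to 309 on gpmA_4, so their single values are imprecise. The other pentose phosphate gene of this genome, rpe for ribulose-phosphate 3-epimerase, had a change of -0.21 ± 0.23 (adjusted p = 0.629) and did not pass.

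Upstream in the pathway, pfkA encodes ATP-dependent 6-phosphofructokinase, the committing step of glycolysis. It had 878, 1261 and 1975 CPM at 0%, 946, 1408 and 2112 at 0.5%, 724, 1264 and 1691 at 1%, and 695, 849.8 and 1012 at 2.5%. The 2.5% libraries were all below the 0% and the 0.5% means, and the first 3 diets had similar ranges. The change was -0.64 ± 0.17 against 0% (edgeR, adjusted p = 0.0142) and -0.74 ± 0.17 against 0.5% (adjusted p = 0.0060). Triose phosphate isomerase, encoded by tpiA, had 2631, 2942 and 3525 CPM at 0%, 2294, 3203 and 4232 at 0.5%, 1543, 3019.9 and 3979 at 1%, and 1889, 2323 and 2559 at 2.5%. No 2.5% library reached the lowest 0% library, yet the change from 0% missed the threshold (-0.41 ± 0.15, adjusted p = 0.0723). Against 0.5% it passed narrowly (-0.50 ± 0.15, edgeR adjusted p = 0.0494) and was lost when any of 16 single libraries was left out. Those fits gave adjusted p-values up to 0.0988. The pfkA call at this contrast was lost with the genome total as a covariate (adjusted p = 0.120), as was that of tpiA (0.523). These made up the 2 of 17 members called between 2.5% and 0.5%, both lower, where 3.37% of all features were called, 1.95% lower.

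**Figure D2:**
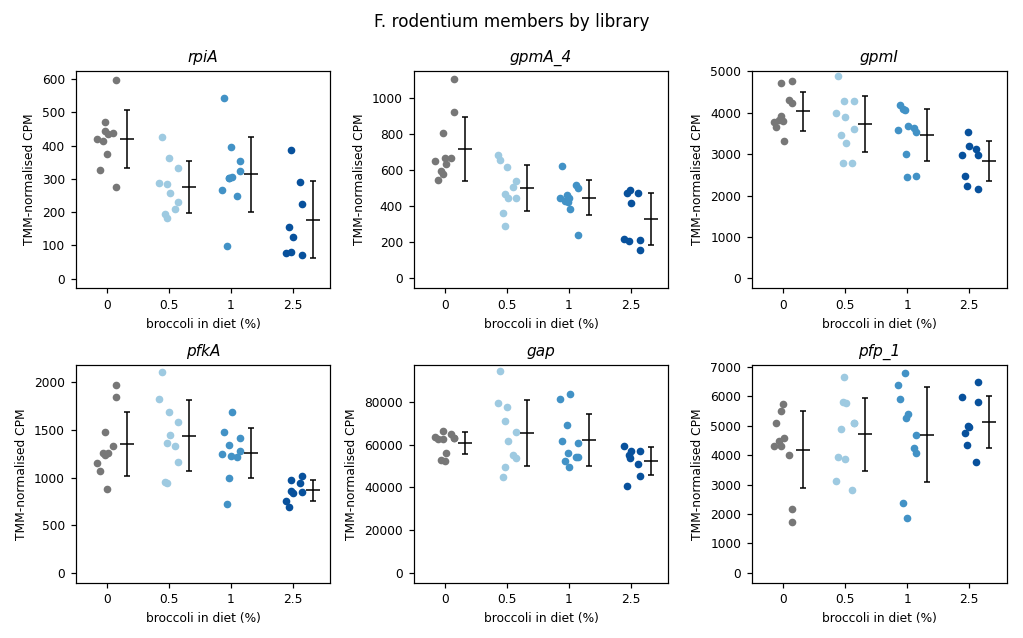
TMM-normalised CPM of 6 F. rodentium genes in each library, by percent of broccoli in the diet; bars are mean ± SD (n = 10, 10, 10 and 8). The 2.5% libraries of gpmA_4 (157 to 489 CPM) lie below every 0% library (547 to 1106 CPM), pfkA, gpmI and rpiA are lower on average, and gap and pfp_1 overlap across all diets.

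The most counted members of this genome were not called. For gap the lowest, median and highest CPM were 52120, 62866 and 66528 at 0%, 44751, 63867 and 94604 at 0.5%, 49365, 58272 and 83874 at 1%, and 40779, 54392 and 59332 at 2.5%. The 8 libraries at 2.5% all lay below the 0% mean, within an overlapping range, with a change of -0.21 ± 0.14 (adjusted p = 0.371). Enolase (eno) and phosphoglycerate kinase (pgk) had changes of -0.07 ± 0.14 and -0.03 ± 0.15, and both signs turned under other scalings (0.051 and 0.085 with RLE factors). The pyrophosphate-dependent phosphofructokinase copy pfp_1, which acts at the same step as pfkA, had 3778, 4965 and 6477 CPM at 2.5% and 1717, 4393 and 5747 at 0%. Its change was 0.29 ± 0.22 (adjusted p = 0.432). A second copy, pfp_2, had a change of -0.22 ± 0.39 (adjusted p = 0.782), so of the 3 genes for this step only pfkA passed.

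At the lower doses little was called in F. rodentium. At 0.5% the phosphoglycerate mutase copy gpmA_1 was the 1 called member of 17, where 8.47% of all features were called, 4.91% lower. It had 296, 385 and 467 CPM at 0%, 102, 210.3 and 309 at 0.5%, 32.9, 242 and 412 at 1%, and 23.5, 256 and 346 at 2.5%. Each of the 10 libraries at 0.5% was under the 0% mean, and its change was -0.85 ± 0.23 (edgeR, adjusted p = 0.0149). Without the libraries numbered 76 to 81 it was -0.77 (adjusted p = 0.124). At 2.5% it was -0.71 ± 0.26 and missed the threshold (adjusted p = 0.0694). At 1% 0 of 17 members were called by edgeR, 2 had an unadjusted p under 0.05 and DESeq2 called 1, where edgeR called 0.474% of all features.

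**Figure D3:**
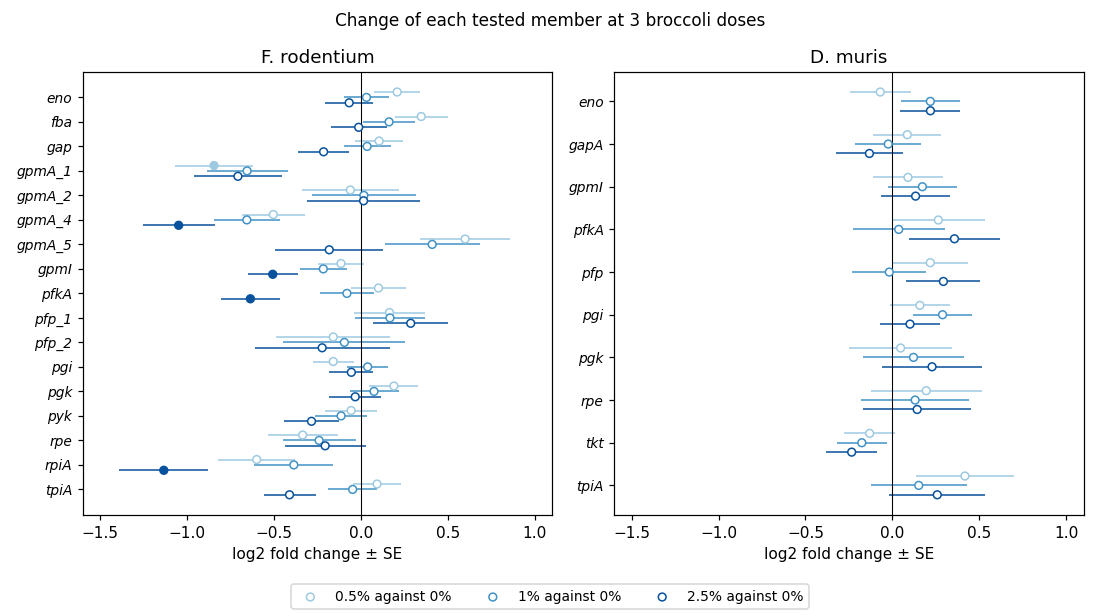
Log2 fold change ± SE of each tested glycolysis and pentose phosphate gene against 0% broccoli at 3 doses, in F. rodentium (left) and D. muris (right); filled points passed the adjusted p threshold. The 5 filled points are all negative and all in F. rodentium, while the D. muris estimates at 2.5% run from -0.23 to 0.36.

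In D. muris no glycolytic or pentose phosphate gene was called at any dose. By edgeR 0 of 10 tested members were called at 0.5, 1 or 2.5% against 0% or at 2.5% against 0.5%, with 0 at an unadjusted p under 0.05 and 0 by DESeq2. Of all 1108 tested features, 4.96% were called at 0.5%, 6.23% at 1%, 10.6% at 2.5% and 0.451% between 2.5% and 0.5%. The 13 members took 1.26% ± 0.19 of its counts at 0% (SD, n = 9), 1.41% ± 0.14 at 0.5% (n = 9), 1.41% ± 0.19 at 1% (n = 10) and 1.45% ± 0.17 at 2.5% (n = 9). The libraries of the 4 diets overlapped widely.

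Among its 3 most counted members was gapA, the glyceraldehyde 3-phosphate dehydrogenase gene. Its lowest, median and highest CPM were 2158, 2807 and 5072 at 0%, 1799, 3694 and 4876 at 0.5%, 1975, 3051 and 5263 at 1%, and 1842, 2908 and 4123 at 2.5%. Transketolase (tkt), which shuttles 2-carbon units between sugars, had 1567, 2917 and 4057 CPM at 0%, 2289, 2678 and 3472 at 0.5%, 2067, 2706 and 3168 at 1%, and 1947, 2566 and 3392 at 2.5%. Enolase (eno) had 1676, 2599 and 3885 CPM at 0%, 1526, 2376 and 3316 at 0.5%, 1776, 2908 and 3915 at 1%, and 1887, 3264 and 3703 at 2.5%. In none of these genes did any diet separate from another. The changes at 2.5% were -0.13 ± 0.19 for gapA, -0.23 ± 0.15 for tkt and 0.22 ± 0.17 for eno, with adjusted p from 0.359 to 0.754. Over all 10 tested members the outermost limits of the approximate 95% intervals at 2.5% were -0.52 (tkt) and 0.87 (pfkA). Each gene has a narrower interval of its own, and only changes within that interval are not excluded for it. The median log2 change was 0.18 over the members and 0.08 over all tested features. Phosphoglycerate mutase gpmA, pyruvate kinase pyk and ribose 5-phosphate isomerase rpiB were too low to test, with 34, 218 and 46 counts over the 2.5% libraries and 3, 17 and 16 over those at 0%.

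In Acetatifactor gap and tested genes of upper glycolysis were higher at 2.5% broccoli than at 0%, within a genome where most tested features were. The 14 members took 0.229% ± 0.161 of its counts at 0% (SD, n = 10 each), 0.568% ± 0.401 at 0.5%, 1.02% ± 0.403 at 1% and 1.19% ± 0.404 at 2.5%. At 2.5% 5 of 8 tested members were higher than at 0% and 0 lower: gap, pgi, pfp_1, pfp_2 and fba. Apart from gap, these had 0 counts in several 0% libraries. They cleared the low-count filter only with the broccoli libraries, so their calls are a description. Of all 773 tested features, 77% were called, 54.5% higher, so the members' number is near that of the genome. The other tested members did not pass. Their changes were 1.15 ± 0.56 for pgk, 1.14 ± 0.67 for gpmI and -1.31 ± 0.64 for gpmA (edgeR, adjusted p = 0.0569, 0.112 and 0.0590). The median log2 change was 1.957 over the members and 1.81 over all features. With RLE factors the median of all features moved to 3.84 and 7 members were called.

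The gap gene had 597, 1013 and 3881 CPM (lowest, median and highest) at 0%, 707, 3193 and 5216 at 0.5%, 2829.8, 4723 and 7794 at 1%, and 1737, 5012 and 7742 at 2.5%. All 10 libraries at 2.5% lay above the 0% mean, and its log2 change was 1.71 ± 0.42 (edgeR, adjusted p = 0.00053). Glucose 6-phosphate isomerase (pgi), which makes fructose 6-phosphate, had 0, 59.7 and 428 CPM at 0%, 0, 462 and 1306 at 0.5%, 133, 725 and 1042 at 1%, and 0, 903 and 1367 at 2.5%. All but 1 of the 2.5% libraries exceeded every 0% library for pgi, and its change was 2.46 ± 0.69 (edgeR, adjusted p = 0.0019). Both copies of the pyrophosphate-dependent phosphofructokinase were called too. The copy pfp_2 had 0, 2242 and 2917 CPM at 2.5% and 0, 192 and 1281 at 0%, a change of 2.20 ± 0.69 (edgeR, adjusted p = 0.0048), and pfp_1 changed by 2.38 ± 0.68 (adjusted p = 0.0022). Fructose bisphosphate aldolase (fba), which splits the 6-carbon sugar, had 0, 889 and 1164 CPM at 2.5% and 0, 31.9 and 556 at 0%, a change of 2.31 ± 0.75 (edgeR, adjusted p = 0.0058). Each of these 4 was above its 0% mean in 9 of 10 libraries. The exception was 2.5% replicate 8, whose 28575 counts included 58 on gap, 28 on gpmA and 0 on the other 12 members. Without it the member share at 2.5% was 1.29% ± 0.271 (n = 9).

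**Figure D4:**
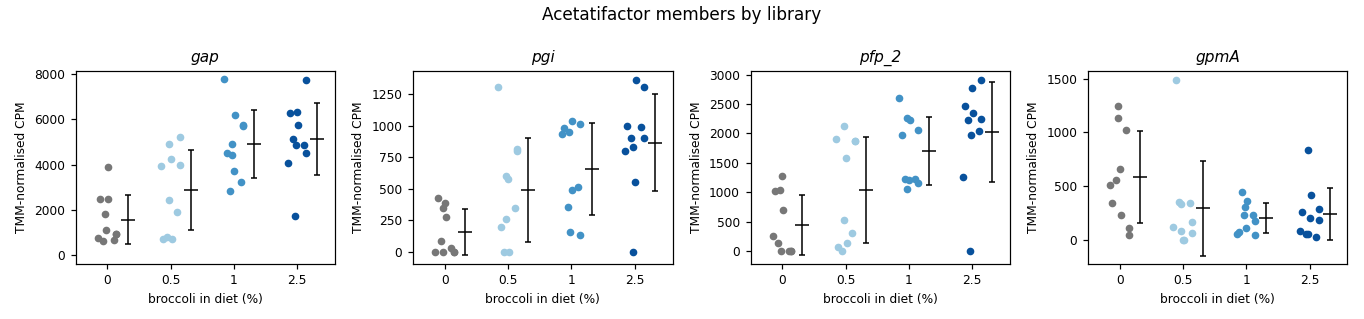
TMM-normalised CPM of 4 Acetatifactor genes in each library, by percent of broccoli in the diet; bars are mean ± SD (n = 10 each). At 2.5% gap, pgi and pfp_2 lie mostly above the 0% libraries, with medians of 5012, 903 and 2242 CPM against 1013, 59.7 and 192, while gpmA tends the other way without passing the test.

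The depth of the libraries moved with these values. With the log2 genome total as a covariate 0 of 8 members were called at 2.5% and 2 at 1%, gap at 2.5% standing at 1.11 (adjusted p = 0.0956). The 5 most counted Acetatifactor features held a median of 56.8% of its counts at 0%, 39.6% at 0.5%, 38.1% at 1% and 28.7% at 2.5%. The part of either in the rise was not tested beyond this. At 1% the same 5 genes rose and gpmA fell, where 67.8% of all features were called, 49.5% higher and 18.2% lower. For gpmA the median was 205.0 CPM at 1% and 533 CPM at 0%, a change of -1.49 ± 0.65 (edgeR, adjusted p = 0.0395). That call was lost under each of the other settings tried and in 33 of 40 fits that left out 1 library. At 0.5% 0 of 8 members were called by edgeR, 3 had an unadjusted p under 0.05 and DESeq2 called 10 of 14, beside 25.1% of all features called by edgeR. Between 2.5% and 0.5% edgeR called 0, with 2 at an unadjusted p under 0.05 and 11 called by DESeq2, beside 9.18% of all features.

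The 6 untested Acetatifactor members had few counts. Enolase (eno) and pyruvate kinase (pyk), which perform the last steps to pyruvate, had 206 and 140 counts over the 10 libraries at 2.5%, and 0 over those at 0%. Taking 3 counts over the 0% group as the floor, eno was at least 11.1-fold higher and pyk at least 7.57-fold higher at 2.5%. The ATP-dependent pfkA had 119 counts at 2.5% and 2 at 0%, a ratio of 9.66 (95% counting interval 2.62 to 80.7). For rpe these were 73 counts and 3 counts, a ratio of 3.95 (1.30 to 19.6). Transaldolase (tal) and tpiA had 243 and 191 counts at 2.5%, against 4 each at 0%. Only counting error enters these intervals and floors.

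In L.bacterium335 the 9 tested glycolysis genes had almost no counts without broccoli and were counted at every dose. At 0% the 15 members held 53 counts in all 10 libraries together, 49 of them on gap, 2 on eno and 2 on gpmI, and the other 12 members had 0. They took 0.0115% ± 0.0169 of the counts on the genome at 0% (SD, n = 10 each), 0.437% ± 0.145 at 0.5%, 0.631% ± 0.215 at 1% and 0.799% ± 0.350 at 2.5%. Of the 9 tested members 7 had 0 counts at 0%. All 9, gap and gpmI included, passed the low-count filter only with the broccoli libraries, so that their calls are a description. All 9 were called higher at 0.5%, at 1% and at 2.5%. So were 79.4%, 78.4% and 77.8% of all 1384 tested features, with 80.1%, 79.9% and 92.8% called in either direction. A total of 65.2% of all tested features had 0 counts at 0%, and nothing is read from the members' count.

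The gap gene is the one member given a fitted change, although it too had 0 counts in some 0% libraries. Its lowest, median and highest CPM were 0, 42.01 and 219.7 at 0%, 1406, 2908 and 9896 at 0.5%, 1561, 3628 and 12569 at 1%, and 12.5, 2861 and 4891 at 2.5%. At 0.5% and 1% all libraries exceeded every 0% library, and at 2.5% all but replicate 9 did. The log2 changes were 5.88 ± 0.73, 6.27 ± 0.74 and 5.33 ± 0.71 at 0.5, 1 and 2.5%. Each was called by edgeR, which is a description here for the reason given above. For the members at 0 counts only lower bounds can be given. At 2.5% they were at least 144-fold for pfp_2, 137-fold for pfp_1, 135-fold for fba, 133-fold for pgi and 104-fold for pfp_3. They were at least 60.9-fold for pgk, 60.7-fold for tpiA, 23.8-fold for pfkA, 12.1-fold for pyk and 6.66-fold for rpe_2. The bounds share 1 floor, so their order follows the counts at 2.5% and does not compare the genes. For gpmI, on 2 counts at 0%, the ratio of the pooled counts was 75.9 (95% counting interval 21.0 to 627) and that of the mean CPM over libraries 28.4. For eno, also on 2 counts, these were 16.2 (4.44 to 134) and 11.2. No fold is given for rpe_1, with 17 counts at 2.5%, and gpmA had 0 counts throughout.

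The tested members were higher at the lowest dose too. Of the untested members, eno exceeded its mean at 0% in only 1 library of the 10 at 0.5%, and rpe_1 and gpmA had 0 counts there. At 0.5% the bounds were at least 119-fold for pfp_2, 116-fold for pfp_1, 111-fold for fba and 75.8-fold for pgi. Aldolase (fba) had 308, 433 and 824 CPM at 0.5%, 258, 575 and 1306 at 1%, and 0, 488 and 824 at 2.5%, with 0 in every library at 0%. The groups did not overlap with 0% for 7 of 9 tested members at 0.5%, 5 at 1% and 0 at 2.5%, beside 26.2%, 21.9% and 5.35% of all tested features. Where a member had 0 counts in every 0% library, this means only that every broccoli library held at least 1 count on it. Nothing is read from such numbers, here or with a library left out. In 2.5% replicate 9 there was 1 member count, on gap, among 101772 counts on the genome. Without that library the groups did not overlap for 9 of 9 members, beside 83% of all tested features, and the member share at 2.5% was 0.888% ± 0.223 (n = 9) and the bounds for pfp_2 and fba were 145-fold and 136-fold. Between 2.5% and 0.5% edgeR called 0 of 9 members, with 0 at an unadjusted p under 0.05, beside 13.2% of all features. RLE factors gave 9 and DESeq2 13, and the median of all features moved from 0.14 to 2.64 with RLE factors.

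The 5 most counted L.bacterium335 features held a median of 76.8% of its counts at 0%, 48.2% at 0.5%, 39.9% at 1% and 18.1% at 2.5%, and 79.1% in 2.5% replicate 9. The bounds are ratios of pooled counts, each divided by the TMM-scaled total of this genome's tested features. Whether the 0% counts came from this bacterium was not tested.

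**Figure D5:**
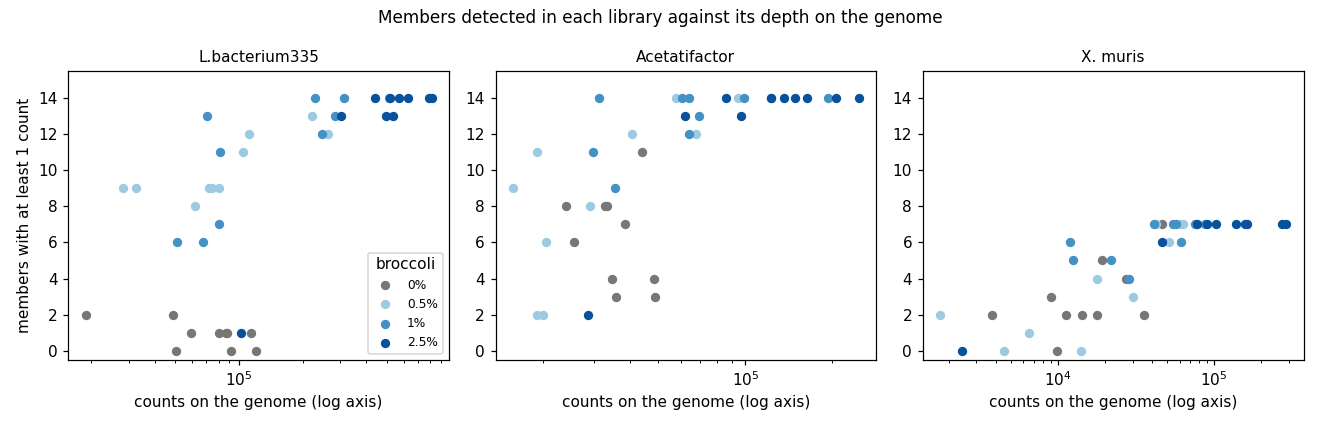
Number of glycolysis and pentose phosphate genes with at least 1 count in each library, against the counts on the genome (log axis), coloured by percent of broccoli in the diet. In L.bacterium335 the 0% libraries hold 0 to 2 detected members at depths where 0.5% and 1% libraries hold 6 or more. In Acetatifactor 0% libraries with 48601 and 48478 counts hold 3 and 4 members, and 1 with 43995 counts holds 11. There 1% libraries with 29664 and 31143 counts hold 11 and 14, and 2.5% replicate 8 with 28575 counts holds 2. The part of depth was not tested. In X. muris deeper libraries mostly hold more members.

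X. muris had only 7 members, and none was called at any dose. They took 0.0848% ± 0.0724 of its counts at 0% (SD, n = 7), 0.120% ± 0.0913 at 0.5% (n = 7), 0.209% ± 0.0880 at 1% (n = 10) and 0.274% ± 0.0892 at 2.5% (n = 9). By edgeR 0 of 5 tested members passed at 0.5, 1 or 2.5% against 0% or at 2.5% against 0.5%, and DESeq2 also called 0. Of all 670 tested features, 0% were called at 0.5%, 6.57% at 1%, 11% at 2.5% and 4.03% between 2.5% and 0.5%. The one unadjusted p under 0.05 was for rpe at 2.5%, with a change of 1.82 ± 0.81 (edgeR, adjusted p = 0.145). It had 59.8, 166 and 259 CPM at 2.5% (lowest, median and highest) and 0, 0 and 167 at 0%, on 5 counts over the 0% libraries.

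For gap the X. muris values were 0, 521 and 1208 CPM at 0%, 0, 626 and 908 at 0.5%, 251, 551 and 774 at 1%, and 258, 469 and 703 at 2.5%. For gpmI they were 0, 260.4 and 791 at 0%, 0, 437 and 596 at 0.5%, 62.7, 492 and 807 at 1%, and 352, 533 and 697 at 2.5%. The SD was widest at 0% for both and no diet separated from another, with changes of -0.16 ± 0.41 and 0.54 ± 0.44 at 2.5% whose signs turned under other settings. Enolase (eno) had 141, 297 and 426 CPM at 2.5% and 0, 0 and 1581 at 0%. Its change of -0.10 ± 0.54 rested on 0% replicate 6, without which it was 1.00 (adjusted p = 0.345). The approximate 95% intervals of the 5 members at 2.5% reached from -1.16 to 3.41, and at 0% a median of 91.2% of the counts lay on 5 features, beside 79.3%, 65.3% and 50.6% at 0.5, 1 and 2.5%. The limits -1.16 (eno) and 3.41 (rpe) are the outermost over the 5 members. Only changes within a member's own interval are not excluded for it at this depth. The untested pfkA and pyk had 118 and 98 counts over the 2.5% libraries and 14 and 2 over those at 0%.

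Whether a gene responded differently in 2 bacteria was tested on the difference of its log2 CPM within each library, 2.5% against 0%. In all 27 pairs could be tested, with two-sided permutation tests (exact where a group was under 10 libraries) adjusted over the 27, and 12 passed. An unadjusted p under 0.05 was found for 14 of the 27, or 51.9%. The same test on all symbols that each pair of genomes shared gave 222 of 614, or 36.2%, so such differences were frequent throughout these genomes. By pair this share ran from 7.41% (Acetatifactor with X. muris) to 86.2% (Acetatifactor with F. rodentium). The members are spread over the pairs in other proportions than all symbols, so the pooled shares are not matched. Against D. muris, F. rodentium stood apart for 3 enzymes. For pfkA the mean change was 0.77 in D. muris and -0.62 in F. rodentium, a difference of 1.39 (n = 8 at 2.5% and 9 at 0%, exact permutation test, adjusted p = 0.0033). In 8 of 8 libraries at 2.5% the D. muris minus F. rodentium value lay above its 0% mean. The edgeR change of pfkA in D. muris was smaller and not called (0.36 ± 0.26, adjusted p = 0.454), and 0% replicate 3 had 0 counts on it. Without that library the difference was 0.99 (exact permutation test, adjusted p = 0.0063). For tpiA it was 0.26 in D. muris and -0.42 in F. rodentium, a difference of 0.68 in 8 of 8 libraries (exact permutation test, adjusted p = 0.0160). For gpmI the mean change was 0.18 in D. muris and -0.53 in F. rodentium, a difference of 0.70 (exact permutation test, adjusted p = 0.0236). Here too 8 of 8 libraries at 2.5% lay above the 0% mean. The same pair did not pass for eno (0.29, exact permutation test, adjusted p = 0.244), pgi (0.26, 0.406), pgk (0.43, 0.369) or rpe (0.29, 0.597). Over all 228 symbols tested in both genomes the median difference was 0.38, and 18.9% had an unadjusted p under 0.05.

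For gap, 4 of the 6 pairs of genomes passed. Its mean change was -0.22 in F. rodentium and 6.17 in L.bacterium335 over the same libraries, 8 at 2.5% and 10 at 0% (difference -6.39, exact permutation test, adjusted p = 0.0012). Between Acetatifactor and F. rodentium the difference was 2.07, with 8 of 8 libraries at 2.5% above the 0% mean (exact permutation test, adjusted p = 0.0033). L.bacterium335 minus X. muris was 5.90, with 9 of 9 libraries at 2.5% above the 0% mean (exact permutation test, adjusted p = 0.0024). This pair and F. rodentium with L.bacterium335 lacked 2.5% replicate 9, too shallow on X. muris and F. rodentium. In that library L.bacterium335 gap had 1 count. The Acetatifactor pair kept it, with an L.bacterium335 change of 5.47. L.bacterium335 gap cleared its low-count filter only with the broccoli libraries, so its pairs are a description. Acetatifactor minus L.bacterium335 was -3.59 (permutation test, n = 10 each, adjusted p = 0.0194), with 9 of 10 libraries in that direction. Acetatifactor minus X. muris was 1.07 (exact permutation test, adjusted p = 0.214) and F. rodentium minus X. muris -0.68 (exact permutation test, adjusted p = 0.520), neither passing. Over all shared symbols the median difference was -3.89 for F. rodentium minus L.bacterium335 (18 symbols), 2.38 for Acetatifactor minus F. rodentium (58), 2.66 for L.bacterium335 minus X. muris (10) and -2.63 for Acetatifactor minus L.bacterium335 (10). By the median, the shared symbols thus differed in the same direction as gap, and depth at 0% differed between the genomes as given above. The part of either was not tested.

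Other enzymes around the pathway were read from a second list of 23 symbols that includes glucokinase, phosphoglucomutase, gluconeogenic enzymes and prs, which makes phosphoribosyl pyrophosphate from ribose 5-phosphate. At 2.5% against 0%, 7 of 7 tested features were higher in Acetatifactor, 9 of 9 in L.bacterium335 and 1 of 2 in X. muris, and none was lower there. Of all tested features 54.5% were called higher in Acetatifactor and 77.8% in L.bacterium335, and 11% were called in either direction in X. muris. In L.bacterium335 fbp, fruK, pgl, ppdK, ppsA and prs_1 had 0 counts at 0%, and pgcA had 3. They passed the low-count filter only through the broccoli groups, so their calls are a description. In D. muris 0 of 7 and in F. rodentium 0 of 5 were called by edgeR, with 2 and 1 at an unadjusted p under 0.05. The changes in Acetatifactor with the smallest p were 3.40 ± 0.79 for prs_1, 2.32 ± 0.69 for prs_2 and 2.38 ± 0.74 for pgcA, a phosphoglucomutase symbol (edgeR, adjusted p = 0.00033, 0.0032 and 0.0042). In L.bacterium335 ppsA, for phosphoenolpyruvate synthase, was at least 204-fold higher, fruK, for fructose 1-phosphate kinase, at least 209-fold higher, and pgcA held 12199 counts at 2.5%, against 3 at 0%. In X. muris ppdK, for pyruvate phosphate dikinase, rose by 0.97 ± 0.34 (edgeR, adjusted p = 0.0466). The backgrounds are those given above for each genome, and the copies of prs are uncertain.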

How the data were processed

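Cecal RNA of 40 mice, 10 per diet, was depleted of ribosomal RNA and made into sequencing libraries, per the labels' protocols. The values are raw read counts per gene, deposited by the authors as 1 table per bacterium. For the aligner, counter and genome build: not given in the sources used here; nor is how reads shared by near-identical genes were assigned, and the genus abbreviations are not spelled out there. No column was left unmapped to a library. Groups follow the treatment label.

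Each genome was fitted on its own with all 4 diets, using edgeR 4.0.16 in R 4.3.3 (limma 3.58.1 loaded): TMM factors, the default low-count filter, glmQLFit and glmQLFTest, with Benjamini-Hochberg adjustment over all tested features of the genome at 0.05. Libraries with under 10000 counts on a genome were left out of its fit. In X. muris 5 stable RNA features with 0.184% of the counts were left out. CPM values use TMM effective library sizes of the tested features. Lower bounds take 3 counts over the 0% libraries together as the floor, and ratios on 1 to 3 counts carry a 95% counting interval, which covers counting error only. Differences between genomes used log2 CPM with a prior count of 2 and two-sided permutation tests, exact or with 100000 resamples (Python 3.11.15, numpy 2.4.6, scipy 1.17.1, pandas 2.3.3). Figures were drawn with matplotlib 3.10.9. The fits were tested on simulated counts.

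Replicate libraries of a group always differed by more than sampling noise (smallest chi-square per degree of freedom 2.97) and 0 pairs were identical. Where nothing says that cages differed, p-values measure only the spread between these mice. The members and the second enzyme list were chosen with earlier results of these data known. Genes named were the 3 with the highest mean CPM per genome, called members by smallest p (up to 6 in each direction at 2.5% against 0%, up to 3 otherwise), members at or near 0 counts, up to 3 other enzymes, and up to 6 pairs of genomes by smallest p. Any other gene was named after its values were seen. Alternatives were RLE factors, no low-count filter, DESeq2 1.42.0, a minimum genome total of 20000, leaving out the libraries numbered 76 to 81, the genome total as a covariate, and leaving out each library in turn.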

Additional observations from a re-analysis of the deposited data

Results flagged for a closer look

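For normally distributed values the cut-off used here flags about 1 in 20 groups by chance. Skewed values with many at 0 need not follow that rate, and groups at 0 in every library cannot be flagged. Among 128 groups of 7 to 10 libraries, 12 held 1 library far from the rest. In Acetatifactor these were gpmA in 0.5% replicate 3 (1492 CPM), gpmA in 2.5% replicate 8 (839 CPM) and fba in 1% replicate 9 (1259 CPM). In L.bacterium335 they were the share of counts on the members in 0% replicate 8 (0.0533%) and in 2.5% replicate 9 (0.000983%), fba in 0.5% replicate 8 (824 CPM), and pfp_1 and pfp_2 at 0 CPM in 2.5% replicate 9. In X. muris they were eno in 0% replicate 6 (1581 CPM), in 0.5% replicate 6 (928.0 CPM) and in 1% replicate 6 (755 CPM), and the member share in 1% replicate 10 (0.404%). Replicates numbered 6 in different diets are different mice, since the numbers follow accession order.

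The change of 1 gene at 2.5% against 0% differed between bacteria in 12 of 27 tested pairs. Those with gap were F. rodentium minus L.bacterium335 (-6.39), L.bacterium335 minus X. muris (5.90), Acetatifactor minus F. rodentium (2.07) and Acetatifactor minus L.bacterium335 (-3.59). D. muris minus F. rodentium differed for pfkA (1.39), tpiA (0.68) and gpmI (0.70). Acetatifactor minus F. rodentium differed for fba (2.65) and pgi (2.64), and Acetatifactor minus D. muris for pgi (2.48), which was lost in 13 of 20 tests that left out 1 library. Acetatifactor fba and pgi, like L.bacterium335 gap, cleared the low-count filter of their genome only with the broccoli libraries. F. rodentium minus X. muris differed for gpmI (-2.07) and tpiA (-1.69). The X. muris changes behind these were 1.57 and 1.27 in the mean log2 CPM, but 0.54 ± 0.44 and 0.67 ± 0.56 in edgeR, neither called. The median difference over all 101 symbols shared by that pair was -1.15. All are differences in log2 change, with adjusted p of 0.0429 or less in permutation tests, exact except for Acetatifactor minus L.bacterium335.

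The Alistipes table, which the comparisons above do not use, holds 11 features with symbols of these pathways. Summed over 10 libraries they had 38 counts at 0%, 111 at 0.5%, 182 at 1% and 2336 at 2.5%. The medians per library were 4 at 0%, 8.5 at 0.5%, 8 at 1% and 158 at 2.5%. All counts on that genome summed to 1620.0 at 0%, 4667 at 0.5%, 11846 at 1% and 161531 at 2.5%. The members' share of them was 2.35% at 0%, 2.38% at 0.5%, 1.54% at 1% and 1.45% at 2.5%, so the higher member counts were not a higher share.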

How the results depend on the processing

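No paired analysis was possible because the labels give no replicate numbers; those used here follow accession order. In Acetatifactor at 0.5% against 0% there were 0 called members, against 5 with RLE factors, 3 without the filter, 10 with DESeq2 and 3 with the minimum of 20000 (0 to 3 leaving out 1 library). At 1% there were 6, against 11 without the filter, 12 with DESeq2 and 2 with the covariate, and RLE factors gave 7 higher and 0 lower. At 2.5% there were 5, against 10 without the filter, 13 with DESeq2, 8 with the minimum of 20000 and 0 with the covariate. Between 2.5% and 0.5% there were 0, against 4 with RLE factors and 11 with DESeq2.

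In F. rodentium the 1 call at 0.5% became 2 with RLE factors, 4 with DESeq2, 0 without the libraries numbered 76 to 81 and 2 with the covariate (1 to 2 leaving out 1 library). At 1% DESeq2 called 1. Between 2.5% and 0.5% the 2 calls became 1 with RLE factors and 0 with the covariate (1 to 4 leaving out 1 library). At 2.5% against 0% there were 3 to 5 calls under every setting tried. In L.bacterium335, 2.5% against 0.5% gave 9 calls with RLE factors, 1 without the filter and 13 with DESeq2. No alternative called a D. muris or X. muris member. The cause of these shifts was not tested.

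Signs turned only for uncalled genes, at 2.5% against 0%. In F. rodentium eno was -0.07, and 0.051 with RLE factors, 0.048 with DESeq2 and 0.030 with the covariate. There pgk was -0.03, and 0.085 with RLE factors, 0.081 with DESeq2 and 0.11 with the covariate (-0.10 to 0.010 leaving out 1 library). In X. muris gap was -0.16, and 0.22 without the filter (-0.36 to 0.10 leaving out 1 library). There gpmI was 0.54, and -0.14 with the minimum of 20000 and -0.55 with the covariate. There eno was -0.10, and 0.27 without the filter (-0.37 to 1.00 leaving out 1 library).

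RLE factors moved the median of all features at 2.5% against 0% to 9.20 from 7.94 in L.bacterium335, to 0.12 from 0.01 in F. rodentium and to 0.25 from 0.51 in X. muris. The prior count, RLE factors and leaving out the libraries numbered 76 to 81 gave 11, 15 and 11 of 27 pairs of genomes. Leaving out each library in turn, chosen after seeing the data, gave 10 to 15. Depth at 0% limits the low members, with medians of 19234 to 83651 counts over the libraries kept on every genome but F. rodentium.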
